A study of Mus musculus with 9 samples.

Results

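The 5 NF-kB transcription factor subunits (Nfkb1, Nfkb2, Rel, Rela and Relb) and 5 inhibitors or co-regulators that feed back on them (Nfkbia, Nfkbie, Nfkbiz, Tnfaip3 and Bcl3) were followed across bulk RNA-seq libraries of long-term haematopoietic stem cells (LT-HSCs). The genes were taken by symbol. All 10 were among the 21939 genes of the count table, and all 10 passed the filter on low counts that left 15127 genes for testing. LT-HSCs, the blood stem cells at the top of the haematopoietic hierarchy, had been sorted from bone marrow of C57BL/6 mice as lineage-negative cells that carry Sca1 and cKit and lack CD34 and Flt3. There were 3 groups of 3 libraries each. The aged+Ri group came from mice over 80 weeks old and its cells were incubated with 100 µM Rhosin, a compound that blocks activation of the GTPase RhoA. The aged group came from mice over 80 weeks old without inhibitor, and the young group from mice of 10 to 16 weeks without inhibitor. The cells of all groups were held for 16 h in Hank's balanced salt solution with 10% serum at 37 °C, 3% oxygen and 5% carbon dioxide, so none of the libraries shows cells straight from the marrow. The labels call the libraries biological replicates without saying how many mice each holds. The p-values therefore measure only the spread between these libraries, which may in part be technical.

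NF-kB proteins bind DNA as dimers and are held in the cytoplasm by IkB proteins until the IKK kinase complex marks the IkB for destruction, which frees the dimer to enter the nucleus. In the canonical branch, driven by receptors for TNF, interleukin-1 and microbial products, the dimers hold mainly RelA or Rel with p50, the product of Nfkb1. In the non-canonical branch, driven by a subset of TNF-family receptors, the kinase NIK triggers processing of the Nfkb2 product to p52, which pairs with RelB. Many of the genes that NF-kB switches on encode its own subunits and its own inhibitors, so that a wave of activity limits itself, and in haematopoietic stem cells the pathway is known for linking inflammatory signals to cycling and self-renewal. Transcript levels of these genes do not measure the amount of NF-kB in the nucleus.

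The upstream sequence of several members carries the kind of site through which this feedback is known to work, and those sites are shown here to make the term concrete. RefSeq upstream windows (build GRCm38.p6, the last 250 bases before each annotated start) were at hand for 7 of the 10 genes. They were searched on both strands, merging overlapping matches, for the NF-kB consensus, a 10-base motif of GGG, a purine, any base, A or T, 2 pyrimidines and CC. A match lay in at least 1 window of 5 of the 7 genes (Nfkb2, Rel, Nfkbia, Nfkbie and Tnfaip3). No window of Rela or Bcl3 held one. Among all 27025 genes with a window, 4.46% held a match, and among the 32851 windows the share was 3.9%. A match is a string of letters and not a measured binding site. The sites are printed on the strand of the gene, 5′ to 3′, with the matching bases in capitals.
Nfkbia, chr12:55492659-55492684, minus strand: actggcttGGAAATTCCCcgcgcctg
Nfkbie, chr17:45555586-45555611, plus strand: agcaaacaGGGGGATTCCggaggggc
Tnfaip3, chr10:19015411-19015430, minus strand: tttccatcGGAAATCCCCct
Tnfaip3, chr10:19015518-19015543, minus strand: ctcacgcgGGGACACCCCggggcggg
Nfkb2, chr19:46304690-46304716, plus strand: atcgtcacGGGAATTCCCCccctcggg
Nfkb2, chr19:46304718-46304736, plus strand: ggccgaaaGGGGCTTTCCc
Nfkb2, chr19:46305451-46305476, plus strand: cgacggcaGGAATGTCCCcacaaaag
Nfkb2, chr19:46305697-46305722, plus strand: gtattttcGGGACTTTCCtaagcagc

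The Nfkbia site ended 20 bases before the annotated start and the Nfkbie site 97 bases before it. The 2 Tnfaip3 sites ended 3 and 116 bases before the first of its 2 annotated starts. Of the 4 Nfkb2 stretches, the first 2 ended 29 and 2 bases before the first of its annotated starts, the third 227 bases before the second start and the fourth 216 bases before the third start. The 3 Nfkb2 windows lay wholly inside the gene as GENCODE places it, and the first Tnfaip3 window reached 3 bases beyond it. The printed sites of these genes thus lie before a RefSeq start but within the GENCODE gene. For Rel, the member whose 3 groups stood fully apart in the counts below, the bases upstream of the gene are given whole, from chr11:23770971-23771219 on the minus strand. The capitals mark overlapping matches that together run from 92 to 82 bases before the start.
Rel: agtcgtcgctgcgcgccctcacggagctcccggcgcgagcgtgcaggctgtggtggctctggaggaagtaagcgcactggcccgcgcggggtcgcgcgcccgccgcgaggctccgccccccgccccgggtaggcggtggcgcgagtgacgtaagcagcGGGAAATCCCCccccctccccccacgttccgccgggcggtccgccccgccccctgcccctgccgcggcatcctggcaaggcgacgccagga

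Library totals lay between 34358101 and 72503142 estimated counts, at which 3 counts, taken as the limit of detection, equal 0.0414 to 0.0873 CPM. CPM, the count of a gene scaled to a fixed library size, is TMM-normalised throughout. All 10 HSC markers listed for the check of identity were detected in each group, and their summed level was 1278 to 2193 CPM in aged+Ri, 1876 to 2587 CPM in aged and 1855 to 3051 CPM in young libraries. Several libraries stood apart. Young 2 and young 3 carried transcripts of the Y chromosome, with a sex-linked sum of 178 and 398 CPM, where the other libraries had at most 1.63 CPM. Young 1 held 13368 CPM of the immunoglobulin light chain gene Iglc2. The summed level of 10 neutrophil-lineage markers was 39.3 to 70.4 CPM in aged+Ri libraries, against 244 to 8381 CPM in aged and 770 to 3080 CPM in young ones, with Cebpe at 0 in all aged+Ri libraries. The 11 monocyte and macrophage markers summed to 71.6 to 139 CPM in aged+Ri, 235 to 1903 CPM in aged and 175 to 524 CPM in young libraries, with C1qa at 0 in all aged+Ri and all aged libraries. The 10 T and NK cell markers summed to 3.79 to 37.1 CPM in aged+Ri, 108 to 308 CPM in aged and 83.0 to 203 CPM in young libraries, with Cd8a at 0 in all aged+Ri libraries. The 7 B cell markers in the table summed to 65.9 to 136 CPM in aged+Ri, 58.9 to 544 CPM in aged and 183 to 13492 CPM in young libraries. The 7 erythroid markers ran the other way and were higher in all aged+Ri libraries, at 439 to 930 CPM, against 23.6 to 69.2 CPM in aged and 23.1 to 374 CPM in young ones, though Car1 was at 0 in all aged+Ri libraries. The 6 megakaryocyte markers summed to 24.2 to 189 CPM in aged+Ri, 248 to 542 CPM in aged and 118 to 287 CPM in young libraries, with Gp9 at 0 in all aged+Ri ones. The 7 mast cell and basophil markers summed to at most 5.34 CPM in aged+Ri (Prss34, Cma1 and Tpsb2 at 0), 23.1 to 274 CPM in aged and 2.98 to 102 CPM in young libraries. The 6 stromal and endothelial markers summed to 1.26 to 36.5 CPM in aged+Ri, 24.7 to 57.2 CPM in aged and 26.9 to 57.2 CPM in young libraries. Because the libraries are bulk samples, fewer cells of a type and less RNA per cell cannot be told apart, and the part of these marker levels in the values below was not tested.

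Per kb of exon, the scale on which levels of different genes can be set side by side, the IkBα gene Nfkbia was by far the most abundant member. It averaged 130 ± 55 CPM per kb in aged+Ri, 129 ± 89 in aged and 66.4 ± 56.2 in young libraries (SD, n = 3 each). Rela, the gene of the main transactivating subunit, came next at 21.1 ± 5.2 CPM per kb in aged+Ri, 12.6 ± 7.2 in aged and 18.5 ± 2.8 in young libraries. Rela stood above the third member by more than the spread of both in aged+Ri and young libraries, whereas in aged libraries its range of 1 SD met that of Nfkb1. Exon length here counts every annotated exon of a gene, 12.061 kb for Nfkb1 and 3.072 kb for Rela. In CPM, Nfkb1 averaged more than Rela in aged (53.9 against 38.6) and young (81.3 against 56.9) libraries. In aged+Ri it averaged less (55.4 against 64.9). The place of Rela therefore depends on the exon length used. The remaining 8 genes averaged between 1.34 and 6.74 CPM per kb in the 3 groups, and in each group the SDs of neighbours in that order overlapped. Tnfaip3 took the lowest of the 10 places in aged+Ri, the 6th in aged and the 4th in young libraries.

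**Figure D1:**
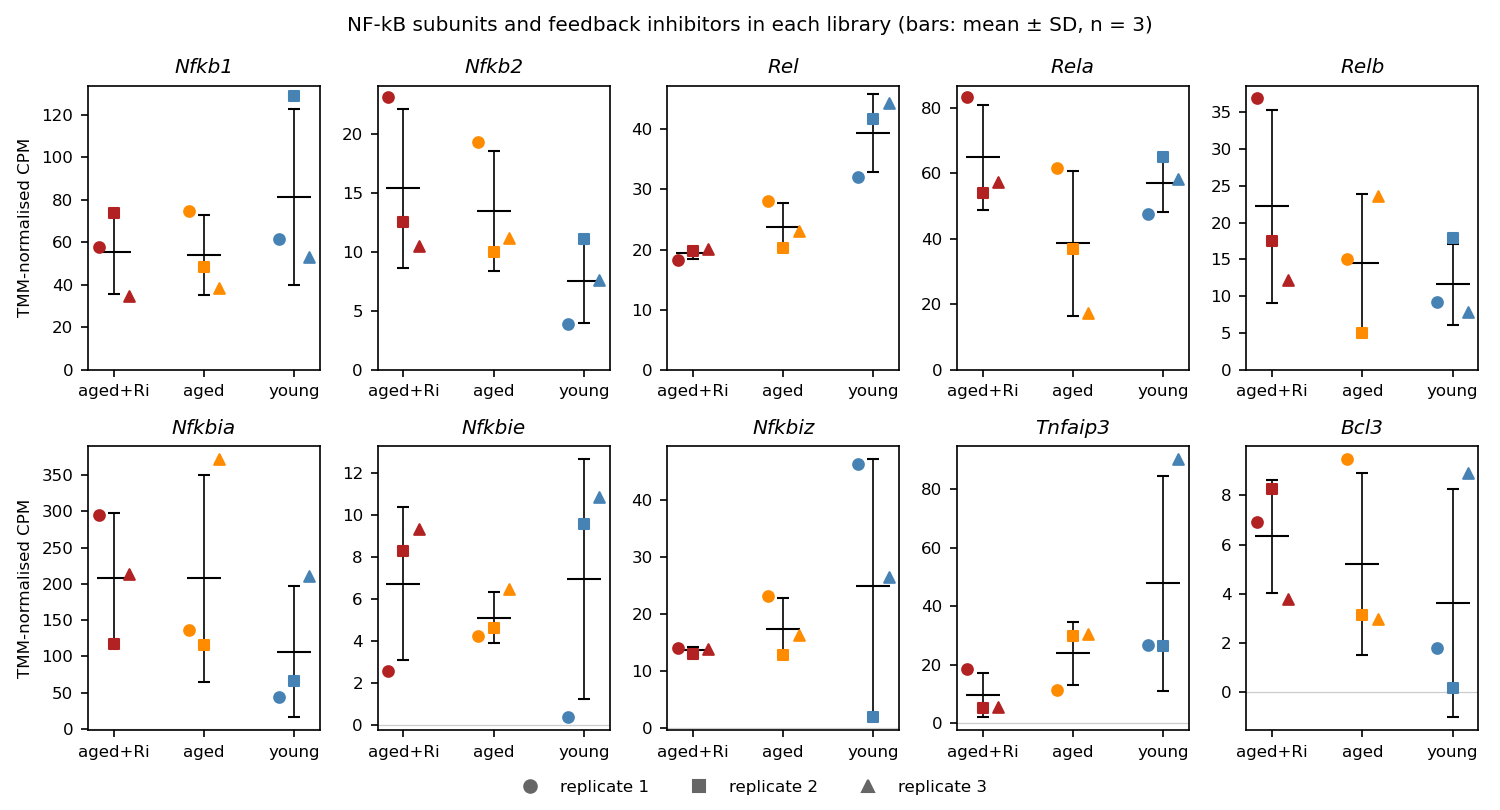
TMM-normalised CPM of each of the 10 genes (vertical axis, a separate linear scale per gene) in the aged+Ri, aged and young libraries; symbols give the replicate number and bars the mean ± SD of 3 libraries. Rel is lowest in aged+Ri and highest in young libraries with no overlap, Tnfaip3 is lower in all aged+Ri than in all young libraries, and Nfkbie, Nfkbiz and Bcl3 scatter most among the young libraries.

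None of the 10 genes passed the test in any comparison (edgeR's quasi-likelihood F-test, two-sided, Benjamini-Hochberg adjustment over all genes tested, threshold 0.05). For aged against young that count of 0 of 10 stood beside 0.0331% of all genes called, for aged+Ri against aged beside 0%, and for aged+Ri against young beside 1.45%. Below an unadjusted p of 0.05 there were 0, 0 and 2 members in the same order of comparisons, where 16.2%, 9.14% and 23.4% of all genes lay. The 2 were Rel and Tnfaip3, both lower in aged+Ri than in young libraries, a direction in which 14.4% of all genes passed that level. With limma-voom no member passed in any comparison, and 0.119%, 0.364% and 4.14% of all genes did. DESeq2, run on the same genes with shares taken over the 13916 that received an adjusted p from it, called Rel and Tnfaip3 in aged+Ri against young, beside 13.4% of all genes in both directions and 7.59% lower, and no member in aged against young (5.35% of all genes) or in aged+Ri against aged (2.3%). No member was apart and higher in any comparison, and the members apart were 1, 1 and 2 of 10, beside 24.7%, 16.5% and 32.3% of all genes apart in either direction. The comparisons share libraries, aged+Ri against young with both others, so they are not independent of each other. The median log2 fold change over the 10 members was -0.48 for aged against young, 0.12 for aged+Ri against aged and 0.07 for aged+Ri against young, beside -0.13, -0.06 and -0.24 over all genes.

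**Figure D2:**
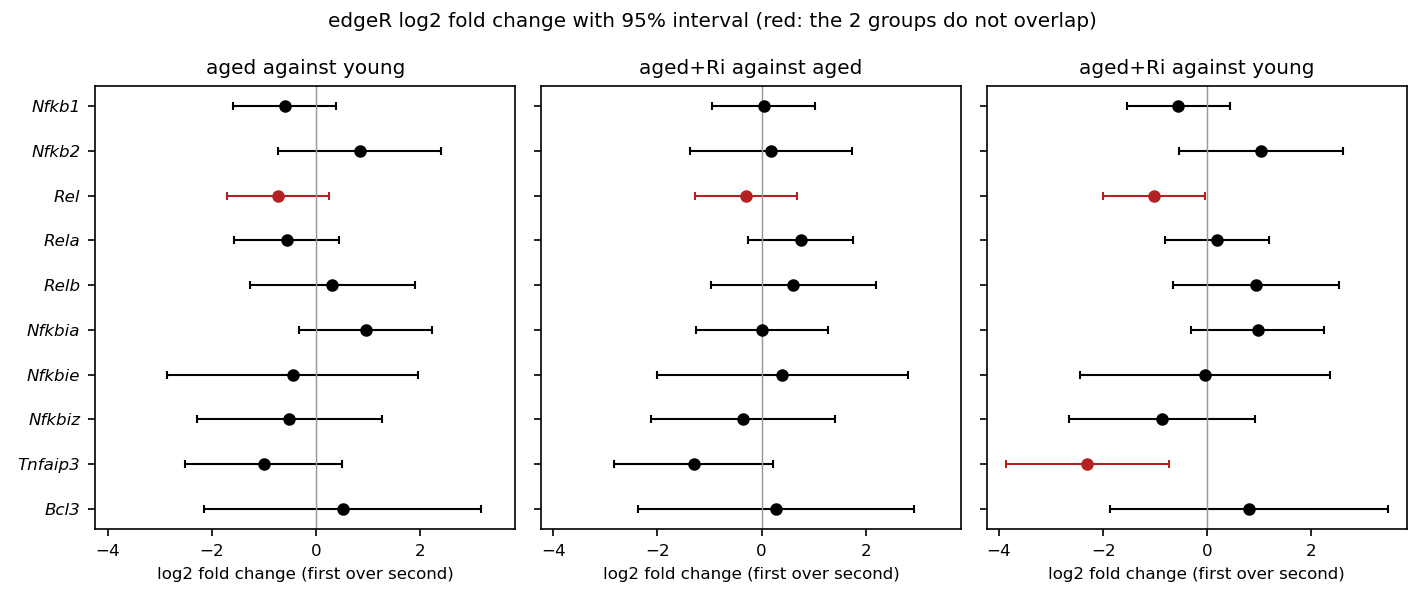
edgeR log2 fold changes of the 10 genes (horizontal axis, first group over second) with 95% intervals, for the 3 comparisons; red marks genes whose 2 groups do not overlap. The intervals of Rel and Tnfaip3 in aged+Ri against young are the 2 that lie wholly below 0, before adjustment over all genes.

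Among the subunits, Rel stood out by order. Rel encodes c-Rel, a transactivating subunit best known in lymphocytes. Its level was 18.2, 19.8 and 20.1 CPM in the aged+Ri libraries, 28.1, 20.3 and 23.0 CPM in the aged libraries and 32.1, 41.7 and 44.3 CPM in the young libraries. All aged+Ri libraries lay below all aged ones, though aged 2 exceeded the highest aged+Ri library by little, and all aged ones lay below all young ones. Rel was the one member with this order. Of all genes tested, 113, or 0.747%, had it in the falling direction and 119, or 0.787%, in the rising direction. For aged+Ri against young, the fitted log2 fold change was -1.02 ± 0.46 (SE), a level of 0.49 times that in young cells (95% interval 0.25 to 0.98), with an unadjusted p of 0.0434 and an adjusted p of 0.201 by edgeR. DESeq2 gave an adjusted p of 0.00545 and a log2 fold change of -1.09.

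For aged against young, the log2 fold change of Rel was -0.73 ± 0.46 by edgeR (adjusted p = 0.44). Groups were apart in the lower direction for 1 of the 10 members here, beside 16.1% of all genes. For aged+Ri against aged it was -0.30 ± 0.45 (adjusted p = 0.936 by edgeR). Here, too, 1 of the 10 members was apart and lower, beside 8.66% of all genes. The labels give each library's sequencing batch, and within a batch the aged libraries were again below the young ones, by -1.01 in batch 2 and -0.92 in batch 3 on the log2(CPM + 1) scale. Aged+Ri minus young in batch 2, the one batch label that both groups shared, was -1.03 on that scale. Aged+Ri minus aged was -0.60 in batch 1 and -0.02 in batch 2. Each of these values sets 1 library of a group, or the mean of 2 aged+Ri libraries in batch 2, against 1 library of the other and carries no test. Young 1, labelled 1+3, entered no within-batch value here, for Rel or for the other genes. Its 32.1 CPM of Rel stood beside 28.1 CPM in aged 1 and 18.2 CPM in aged+Ri 1, both of batch 1. The within-batch values against young rest on young 2 and young 3, the libraries with Y-linked transcripts. In those values, for Rel and for the other genes, group and the sex of the mice cannot be told apart. Mitochondrially encoded transcripts, a sum over 13 genes, also lay lower in aged+Ri (16638 to 24653 CPM) and aged (23294 to 36669 CPM) than in young libraries (37960 to 50819 CPM), and their part in the order of Rel was not tested.

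Rela, which encodes the p65 subunit, was at 83.3, 53.9 and 57.4 CPM in aged+Ri, 61.6, 37.0 and 17.2 CPM in aged and 47.6, 64.8 and 58.3 CPM in young libraries. The aged group reached lowest, and both neighbours overlapped it through aged 1. The log2 fold change was 0.75 ± 0.47 for aged+Ri against aged (adjusted p = 0.683 by edgeR) and -0.56 ± 0.47 for aged against young (adjusted p = 0.576). Within batches, aged+Ri minus aged was 0.43 in batch 1 and 0.58 in batch 2, and aged minus young was -0.79 in batch 2 and -1.70 in batch 3, on the log2(CPM + 1) scale. For aged+Ri against young it was 0.19 ± 0.46 (adjusted p = 0.842 by edgeR), which the 95% interval of the ratio bounds between 0.57 and 2.28. With the batch as a covariate this last value turned to -0.56 (adjusted p = 0.596 by edgeR). Young 1 is the only library labelled 1+3, so that fit took the young level from young 2 and young 3 alone. These carried the Y-linked transcripts, so group and the sex of the mice cannot be told apart in that value.

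Nfkb1 encodes p105, which is both the precursor of p50 and an IkB-like inhibitor. It was at 57.8, 73.7 and 34.7 CPM in aged+Ri, 74.8, 48.4 and 38.4 CPM in aged and 61.8, 129 and 53.2 CPM in young libraries. The groups overlapped throughout, with young 2 alone above 100.0 CPM. The log2 fold changes were -0.59 ± 0.46 for aged against young, 0.04 ± 0.46 for aged+Ri against aged and -0.55 ± 0.46 for aged+Ri against young, with adjusted p by edgeR between 0.491 and 0.995.

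The non-canonical pair, Nfkb2 and Relb, was higher on average in the aged groups than in young cells, within overlapping ranges. Nfkb2 was at 23.1, 12.5 and 10.5 CPM in aged+Ri, 19.3, 9.97 and 11.2 CPM in aged and 3.88, 11.1 and 7.58 CPM in young libraries. Its log2 fold change was 1.03 ± 0.73 for aged+Ri against young (adjusted p = 0.412 by edgeR), 0.84 ± 0.73 for aged against young (adjusted p = 0.592) and 0.19 ± 0.72 for aged+Ri against aged (adjusted p = 0.982). In batch 2, where all groups were present, Nfkb2 stood at 11.5 CPM in aged+Ri, 9.97 CPM in aged and 11.1 CPM in young libraries. In batch 3 it stood at 11.2 CPM in aged 3 and 7.58 CPM in young 3, a difference of 0.50 on the log2(CPM + 1) scale, so that the excess over young was present in batch 3 and not in batch 2. Nfkb2 overlaps a lncRNA and Psd on the other strand, and no source used here says whether reads were counted by strand. Its reads therefore cannot be told apart from theirs.

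Relb was at 37.0, 17.5 and 12.2 CPM in aged+Ri, 15.1, 5.00 and 23.6 CPM in aged and 9.18, 17.96 and 7.81 CPM in young libraries. Its log2 fold change was 0.93 ± 0.74 for aged+Ri against young (adjusted p = 0.47 by edgeR), 0.61 ± 0.74 for aged+Ri against aged (adjusted p = 0.901) and 0.32 ± 0.73 for aged against young (adjusted p = 0.874). Within batches, aged+Ri exceeded aged by 1.24 in batch 1 and 1.38 in batch 2 on the log2(CPM + 1) scale. Aged minus young was -1.66 in batch 2 and 1.48 in batch 3 on that scale, opposite in sign.

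**Figure D3:**
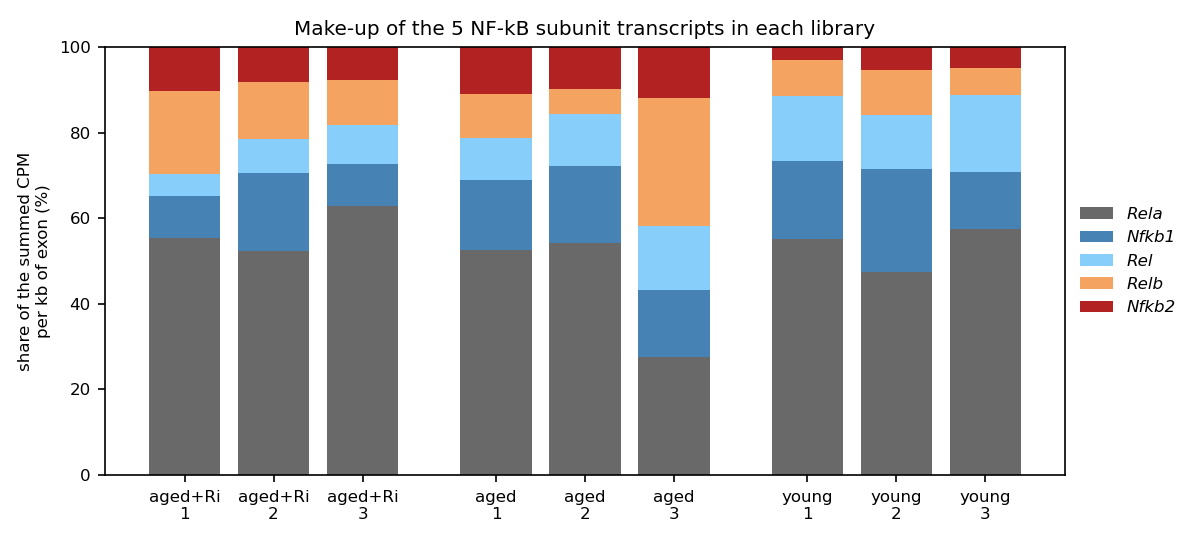
Share of each NF-kB subunit transcript in the summed level of the 5 subunits (vertical axis, percent of CPM per kb of exon), 1 stacked bar per library, in the order aged+Ri, aged, young. Rela takes the largest share in every library but aged 3, and Nfkb2 the smallest in each young library. Rel holds a smaller share in each aged+Ri library than in any aged or young library.

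The 5 subunit transcripts were also taken as a pool, with levels per kb of exon. Rela held 56.9 ± 5.5% of the pool in aged+Ri, 44.8 ± 15.0% in aged and 53.4 ± 5.2% in young libraries (SD, n = 3 each). Rel held 7.33 ± 2.11% in aged+Ri, 12.4 ± 2.6% in aged and 15.3 ± 2.7% in young libraries, and every aged+Ri library, at 4.99 to 9.09%, lay below every other one, the lowest of which had 9.89%. Nfkb2 held 8.72 ± 1.38% in aged+Ri, 10.9 ± 1.1% in aged and 4.49 ± 1.30% in young libraries, and the young libraries, at 3.01 to 5.44%, lay below all others, the lowest of which had 7.72%. Relb held 14.5 ± 4.6% in aged+Ri, 15.3 ± 12.8% in aged and 8.30 ± 2.16% in young libraries. Its aged range overlapped both others, while aged+Ri, from 10.56%, lay just above young, up to 10.41%. Nfkb1 (12.6 ± 4.9%, 16.6 ± 1.3% and 18.5 ± 5.4% in the same order) and Rela overlapped between groups. A share moves when any of the other subunits moves, and these shares carry no test and no rate of groups apart over other genes. The Nfkb2 share includes any reads of the genes it overlaps. The size of a share also depends on the exon lengths used, which count every annotated exon of a gene.

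Of the inhibitors, Tnfaip3 differed most. It encodes A20, a ubiquitin-editing enzyme that shuts down signalling from TNF and Toll-like receptors to IKK. Its level was 18.4, 5.10 and 5.53 CPM in aged+Ri, 11.4, 29.8 and 30.6 CPM in aged and 26.8, 26.4 and 90.2 CPM in young libraries. Every aged+Ri library was below every young one, while aged+Ri and aged overlapped because aged+Ri 1 lay above aged 1. For aged+Ri against young, the log2 fold change was -2.30 ± 0.73, a level of 0.202 times that in young cells (95% interval 0.0683 to 0.601). The unadjusted p was 0.00726 and the adjusted p 0.101 by edgeR, 0.0819 by limma-voom and 0.0168 by DESeq2. Tnfaip3 and Rel were the 2 of 10 members apart and lower in this comparison, beside 19.9% of all genes.

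The size of that difference leaned on young 3. Without it the log2 fold change of Tnfaip3 in aged+Ri against young was -1.45, and against young 1 alone, a lone library assumed to vary like those of the other groups, it was -1.41. Without aged+Ri 1 it was -3.13, without aged+Ri 2 it was -1.94 and without aged+Ri 3 it was -1.99. For aged+Ri against aged, Tnfaip3 had a log2 fold change of -1.31 ± 0.71 (adjusted p = 0.618 by edgeR), which was -2.17 without aged+Ri 1. For aged against young it was -0.999 ± 0.70 (adjusted p = 0.493 by edgeR). Within batches the differences were not of 1 sign. Aged+Ri minus aged was 0.65 in batch 1 and -2.29 in batch 2 on the log2(CPM + 1) scale, aged+Ri minus young was -2.12 in batch 2, and aged minus young was 0.17 in batch 2 and -1.53 in batch 3.

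The marker sums of other blood cells moved with Tnfaip3 in part. The 7 B cell markers summed to 136, 65.9 and 104 CPM in the aged+Ri libraries, 58.9, 544 and 523 CPM in the aged libraries and 13492, 183 and 1120 CPM in the young libraries. The B cell receptor gene Cd79a was at 0.674, 2.04 and 19.3 CPM in aged+Ri, 2.86, 68.1 and 168 CPM in aged and 13.9, 2.09 and 308 CPM in young libraries. Young 3, with the most Tnfaip3, also had the most Cd79a, whereas young 2 had 26.4 CPM of Tnfaip3 at a Cd79a level like that of aged+Ri 2. The part of other cells in the Tnfaip3 level was not tested.

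**Figure D4:**
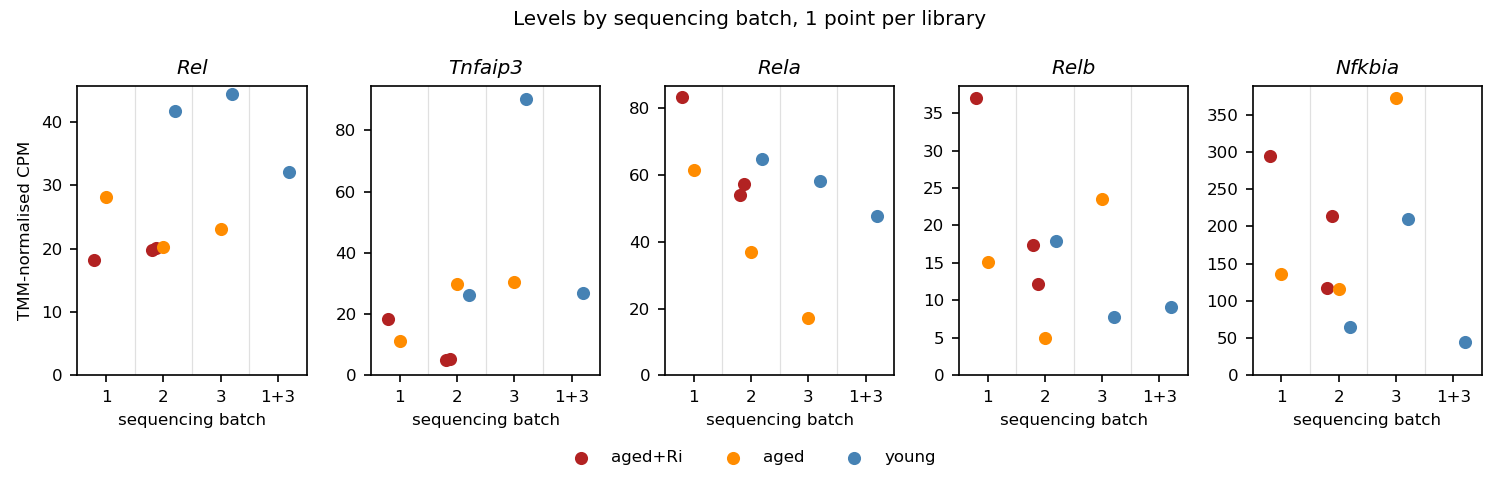
TMM-normalised CPM of Rel, Tnfaip3, Rela, Relb and Nfkbia (vertical axis, a separate linear scale per gene) by the sequencing batch that the labels give (horizontal axis; 1+3 is the library sequenced in both), 1 point per library coloured by group. In batches 2 and 3 Rel is lower in aged than in young libraries, and in batches 1 and 2 Nfkbia and Relb are higher in aged+Ri on average than in aged libraries.

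Nfkbia encodes IkBα, the inhibitor that NF-kB resynthesises fastest and that restores its retention in the cytoplasm. It was at 295, 117 and 214 CPM in aged+Ri, 136, 116 and 372 CPM in aged and 44.4, 65.6 and 211 CPM in young libraries. Young 1 and young 2 were below all other libraries, and young 3 lay among them. The log2 fold change was 0.97 ± 0.59 for aged+Ri against young (adjusted p = 0.339 by edgeR), 0.96 ± 0.59 for aged against young (adjusted p = 0.431) and 0.01 ± 0.59 for aged+Ri against aged (adjusted p = 0.999). For the last comparison the 95% interval of the ratio, 0.418 to 2.41, leaves room for differences of more than 2-fold either way.

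Within batches the picture for Nfkbia was more even than over all libraries. Aged minus young was 0.81 in batch 2 and 0.82 in batch 3 on the log2(CPM + 1) scale. Aged+Ri minus young was 1.26 in batch 2, and aged+Ri minus aged was 1.11 in batch 1 and 0.45 in batch 2. With the batch as a covariate in edgeR, the log2 fold change was 0.75 for aged+Ri against aged (adjusted p = 0.535), 0.73 for aged against young (adjusted p = 0.467) and 1.48 for aged+Ri against young (adjusted p = 0.123), none past the threshold. The 2 comparisons with young rest on young 2 and young 3 there, both with Y-linked transcripts, because young 1 is alone under the label 1+3. Batch 3 held no aged+Ri library, and it held aged 3 and young 3, the libraries of their groups with the most Nfkbia. These 2 also had the largest neutrophil-marker sums of their groups, at 8381 CPM in aged 3 and 3080 CPM in young 3, while aged+Ri 1 had 295 CPM of Nfkbia at a neutrophil-marker sum of 70.4 CPM. Batch and marker level both moved with Nfkbia in these libraries, and their part was not tested.

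The genes whose level across the 9 libraries was most like that of Nfkbia, among 6312 genes averaging at least 20 CPM, were Eif4a1 (Pearson r = 0.985, Spearman rho = 1 on log2(CPM + 1)), Morf4l1 (r = 0.963) and BC004004 (r = 0.958). Eif4a1, a translation initiation factor, was at 279, 125 and 265 CPM in aged+Ri, 141, 119 and 404 CPM in aged and 55.3, 56.2 and 247 CPM in young libraries, the same order of libraries as Nfkbia. For Tnfaip3 they were Elp2 (r = 0.926), Commd1 (r = 0.89) and Bach2 (r = 0.89). These are the highest values of a search over many genes and the points share library depth and batch, so they are descriptions.

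The 3 remaining members were low and scattered widely among young libraries. Nfkbie, the gene of IkBε, was at 2.55, 8.26 and 9.32 CPM in aged+Ri, 4.21, 4.61 and 6.47 CPM in aged and 0.364, 9.54 and 10.9 CPM in young libraries. The highest and lowest young library differed 29.8-fold, the lowest resting on 18 counts. Nfkbiz, the gene of the nuclear co-regulator IkBζ, was at 14.1, 13.1 and 13.8 CPM in aged+Ri, 23.3, 12.8 and 16.3 CPM in aged and 46.3, 1.96 and 26.5 CPM in young libraries. Its aged+Ri libraries lay within 1.08-fold of each other, against 1.81-fold in aged and 23.6-fold in young libraries. Bcl3, which encodes a nuclear IkB-like partner of p50 and p52, was at 6.91, 8.27 and 3.81 CPM in aged+Ri, 9.47, 3.14 and 2.99 CPM in aged and 1.82, 0.179 and 8.90 CPM in young libraries, a 49.8-fold range in young cells whose lowest value rests on 7 counts. Different young libraries were lowest for the 3 genes: young 1 for Nfkbie and young 2 for Nfkbiz and Bcl3. The standard errors of their log2 fold changes were 0.82 to 1.24, the widest of the 10, and their adjusted p by edgeR lay between 0.559 and 0.987. Bcl3 overlaps 2 antisense genes, whose reads could not be told from its own.

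The rest of the pathway was described with lists written with earlier results of these data known. Genes of a list are counted as called by edgeR, which called 0.0331%, 0% and 1.45% of all genes in the order of comparisons above. DESeq2 called 5.35%, 2.3% and 13.4% and limma-voom 0.119%, 0.364% and 4.14%, and their values are given for some genes. Of 9 ligands, 5 passed the filter and 0 were called in any comparison. For aged+Ri against young, 4 of the 5 had negative and 1 positive log2 fold changes, with a median of -2.06 beside -0.24 over all genes. Lymphotoxin β (Ltb), which drives the non-canonical branch, was at 28.5, 23.2 and 44.8 CPM in aged+Ri, 44.6, 64.1 and 250.07 CPM in aged and 32.1, 17.1 and 352 CPM in young libraries. The groups overlapped, with aged 3 and young 3 far above the rest, and the adjusted p was 0.263 by edgeR in aged+Ri against young. The list median of -2.06 is the value of Ltb itself. Its young mean of 134 CPM rests on young 3, with young 1 and young 2 within or below the aged+Ri range. Of 18 receptors, 16 passed the filter and 0 were called in any comparison. In aged+Ri against young 4 of the 16 were apart and lower, beside 19.9% of all genes. Among them Tlr7, a sensor of single-stranded RNA, was at 0.0281, 0 and 0.113 CPM in aged+Ri, 8.16, 0.0361 and 9.19 CPM in aged and 0.324, 4.82 and 15.2 CPM in young libraries. Aged 2, at 2 counts, lay within the aged+Ri range, so those groups overlapped. For aged+Ri against young the adjusted p of Tlr7 was 0.0964 by edgeR and 0.000671 by DESeq2, with 5 counts over the aged+Ri libraries. Il18r1, the interleukin-18 receptor chain, averaged 1.41 CPM in aged+Ri, 7.30 CPM in aged and 10.8 CPM in young libraries (adjusted p = 0.169 by edgeR and 0.027 by DESeq2 for aged+Ri against young). Tlr6, a partner of Tlr2 in sensing lipopeptides, averaged 5.30 CPM in aged and 0.834 CPM in young libraries (adjusted p = 0.423 by edgeR). Ltbr, the lymphotoxin β receptor, averaged 9.498 CPM in aged+Ri and 12.7 CPM in young libraries (adjusted p = 0.736 by edgeR).

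All 29 adaptors and kinases were tested and 0 were called in any comparison. Their log2 fold changes were positive for 14 and negative for 15 in aged against young, and positive for 18 and negative for 11 in each of the comparisons of aged+Ri. The medians were -0.10 for aged against young, 0.22 for aged+Ri against aged and 0.33 for aged+Ri against young, beside -0.13, -0.06 and -0.24 over all genes. Tab2, an adaptor that carries the kinase TAK1 to ubiquitin chains, was at 78.0, 69.7 and 78.3 CPM in aged+Ri, 74.9, 63.8 and 57.5 CPM in aged and 144, 176 and 160 CPM in young libraries. All 6 libraries from aged mice lay below all 3 young ones. Its log2 fold change was -1.29 ± 0.30 for aged against young (adjusted p = 0.173 by edgeR, 6.62e-06 by DESeq2) and -1.09 ± 0.30 for aged+Ri against young (adjusted p = 0.0809 by edgeR, 0.000174 by DESeq2). Irak1, a kinase of the Toll-like and interleukin-1 receptor pathway, averaged 72.3 CPM in aged+Ri, 81.6 CPM in aged and 151 CPM in young libraries. Both aged groups were again apart from young. The adjusted p was 0.116 by edgeR and 0.0244 by DESeq2 for aged+Ri against young. For aged against young it was 0.26 by edgeR and 0.0974 by DESeq2. Irak3, which restrains that pathway, was at 47.2, 64.0 and 42.1 CPM in aged+Ri and 171, 76.9 and 174 CPM in aged libraries, apart, with a log2 fold change of -1.46 ± 0.39 (adjusted p = 0.335 by edgeR, 0.0308 by DESeq2). Map3k14, the gene of NIK, averaged 5.38 CPM in aged+Ri, 11.5 CPM in aged and 18.2 CPM in young libraries (adjusted p = 0.197 by edgeR and 0.0288 by DESeq2 for aged+Ri against young). Of the 29, 4 were apart and higher in aged+Ri than in aged libraries and 1 apart and lower, beside 16.5% of all genes apart in either direction. In aged+Ri against young these counts were 4 and 4, beside 32.3%, and in aged against young 0 and 2, beside 24.7%. The 4 higher than in aged libraries were Chuk, Btrc, Irak2 and Ripk1. Chuk, the gene of IKKα, averaged 83.2 CPM in aged+Ri and 51.8 CPM in aged libraries. Btrc, a subunit of the ubiquitin ligase that recognises marked IkB, averaged 37.1 CPM in aged+Ri and 20.8 CPM in aged libraries. The kinase Irak2 averaged 25.8 and 12.3 CPM in that order, and Ripk1 54.7 and 37.0 CPM. The adjusted p by edgeR was 0.589 for Chuk, 0.71 for Btrc and 0.738 for Irak2.

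Of the 12 other inhibitors, all tested, 0 were called in any comparison. Those apart and higher or lower were 1 and 1 in aged against young, 2 and 1 in aged+Ri against aged, and 2 and 2 in aged+Ri against young. Beside these stood 24.7%, 16.5% and 32.3% of all genes apart in either direction. Otulin, a deubiquitinase of linear chains, averaged 106 CPM in aged+Ri, 142 CPM in aged and 67.6 CPM in young libraries, and was apart and higher in both aged groups (adjusted p = 0.278 and 0.21 by edgeR against young, in that order of groups). Cyld, another deubiquitinase, averaged 44.1 CPM in aged+Ri, 67.1 CPM in aged and 79.3 CPM in young libraries (adjusted p = 0.186 by edgeR and 0.0496 by DESeq2 for aged+Ri against young). Itch, a ubiquitin ligase that works with A20, was at 115, 74.0 and 55.8 CPM in aged+Ri, 65.3, 43.0 and 47.6 CPM in aged and 106, 92.9 and 109.8 CPM in young libraries, apart between aged and young (adjusted p = 0.239 by edgeR). Commd1, which limits RelA, averaged 73.5 CPM in aged+Ri and 123 CPM in young libraries (adjusted p = 0.239 by edgeR). Tnip3, an A20-binding protein, averaged 105 CPM in aged+Ri and 55.3 CPM in aged libraries, and Rnf11, a further partner of A20, 121 CPM in aged+Ri and 87.4 CPM in aged libraries (adjusted p = 0.677 and 0.854 by edgeR). The medians of the log2 fold changes over this list were 0.05 for aged against young, 0.30 for aged+Ri against aged and 0.23 for aged+Ri against young.

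**Figure D5:**
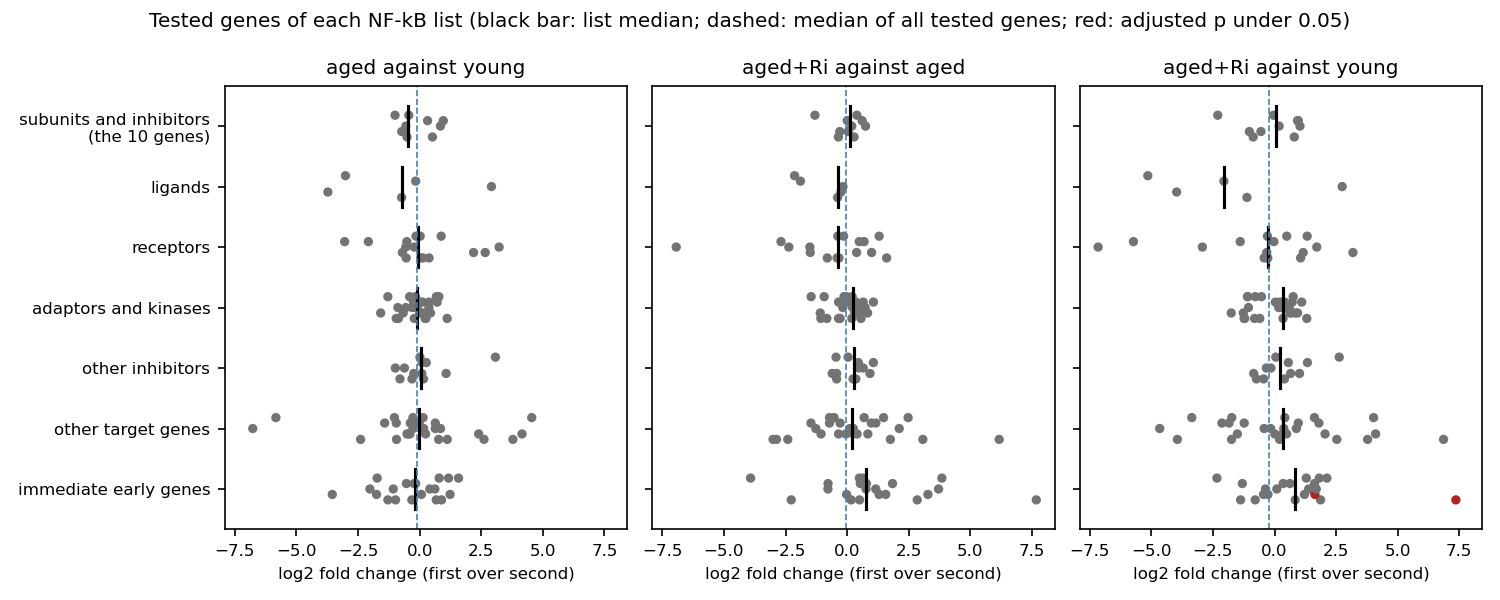
edgeR log2 fold changes (horizontal axis, first group over second) of the tested genes in the 10-gene set and in 6 lists of NF-kB pathway and immediate early genes, for the 3 comparisons; black bars are list medians and the dashed line the median of all tested genes. The 2 red points, Klf4 and Klf6 in aged+Ri against young, are the genes of these lists with an adjusted p under 0.05; fitted changes of the 3 genes with at most 3 counts in a group depend on the prior count.

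Of 28 other genes known as NF-kB targets, 27 passed the filter and 0 were called by edgeR in any comparison, beside 0.0331%, 0% and 1.45% of all genes. They did not lie to 1 side: for aged+Ri against young 16 log2 fold changes were positive and 11 negative, with a median of 0.33. Targets apart and higher or lower were 1 and 4 in aged against young, 5 and 1 in aged+Ri against aged, and 6 and 4 in aged+Ri against young. Beside these stood 24.7%, 16.5% and 32.3% of all genes apart in either direction. The chemokine Ccl4 was at 190, 324 and 395 CPM in aged+Ri, 702, 581.6 and 206 CPM in aged and 847, 795 and 1390 CPM in young libraries. Both aged groups were apart from the young one. The log2 fold change was -1.74 ± 0.43 for aged+Ri against young (adjusted p = 0.0617 by edgeR, 0.00893 by DESeq2, 0.0471 by limma-voom). For aged against young it was -1.02 ± 0.43 (adjusted p = 0.268 by edgeR). Its neighbour in function Ccl3 averaged 92.1 CPM in aged+Ri, 255 CPM in aged and 331 CPM in young libraries (adjusted p = 0.0902 by edgeR and 0.026 by DESeq2 for aged+Ri against young). Both encode chemokines that mature immune cells also make, and the neutrophil, monocyte, and T and NK marker sums were lowest in aged+Ri libraries. Their part was not tested.

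In the other direction, Ninj1, a membrane protein of the plasma membrane rupture pathway, was at 392, 324 and 382 CPM in aged+Ri, 208, 153 and 127 CPM in aged and 55.0, 76.5 and 184 CPM in young libraries. It was apart and higher in aged+Ri than in both other groups. The log2 fold change was 1.80 ± 0.42 against young (adjusted p = 0.0521 by edgeR, 0.00806 by DESeq2, 0.0134 by limma-voom). Against aged it was 1.17 ± 0.41 (adjusted p = 0.434 by edgeR). Sod2, the mitochondrial superoxide dismutase, was at 235, 254 and 260 CPM in aged+Ri, 202, 193 and 233 CPM in aged and 162, 134 and 109 CPM in young libraries. This is the rising order in which none of the 3 groups overlapped (adjusted p = 0.101 by edgeR and 0.0212 by DESeq2 for aged+Ri against young). Ptgs2, the inducible cyclooxygenase, was at 14.1, 4.27 and 17.5 CPM in aged+Ri and at most 0.334 CPM in aged and 2.22 CPM in young libraries. Its log2 fold change was 6.17 ± 1.64 against aged (adjusted p = 0.335 by edgeR, 5.6e-05 by DESeq2, 0.0462 by limma-voom). Traf1 averaged 63.6 CPM in aged+Ri, 22.8 CPM in aged and 20.7 CPM in young libraries (adjusted p = 0.495 by edgeR for aged+Ri against aged). Bcl2l1, the gene of the survival factor Bcl-xL, averaged 0.952 CPM in aged+Ri and 6.99 CPM in aged libraries (adjusted p = 0.514 by edgeR). Csf1, the macrophage growth factor, averaged 4.67 CPM in aged and 12.5 CPM in young libraries (adjusted p = 0.538 by edgeR).

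Immediate early genes, which cells switch on within minutes of a stimulus and which cell handling can also raise, were set beside the NF-kB genes for scale. Of 21 tested, 2 passed the test in aged+Ri against young, both higher, beside 0.959% of all genes called higher, and 0 passed in the other comparisons. Klf4 rose to 48.8, 67.1 and 67.9 CPM in aged+Ri, against 0.404, 0.306 and 0.399 CPM in young libraries, with a log2 fold change of 7.36 ± 1.27 (adjusted p = 0.0188 by edgeR). Klf6 rose to 405, 323 and 329 CPM in aged+Ri, against 95.02, 127 and 118 CPM in young libraries, with a log2 fold change of 1.64 ± 0.28 (adjusted p = 0.0188 by edgeR). Aged libraries had 107 to 130 CPM of Klf6 and at most 0.747 CPM of Klf4, and for aged+Ri against aged the adjusted p for Klf6 was 0.127 by edgeR, 2.68e-06 by DESeq2 and 0.0191 by limma-voom, and for Klf4 0.124 by edgeR, 1.04e-10 by DESeq2 and 0.0081 by limma-voom. DESeq2 and limma-voom thus called both in that comparison. Both are Krüppel-like transcription factors. The call of Klf4 was lost without aged+Ri 3 (adjusted p = 0.0879) and against young 1 alone (0.153, with the same assumption on its spread), and that of Klf6 without young 1 (0.0647), aged+Ri 1 (0.0775) or aged+Ri 3 (0.0932), with the batch as a covariate (0.0734) and with only these groups in the edgeR fit (0.0526). The fit with batch as a covariate took the young level from young 2 and young 3 alone, both with Y-linked transcripts. Of the 21 tested, 7 were apart and higher and 0 apart and lower in aged+Ri against aged, beside 16.5% of all genes apart in either direction. These counts were 5 and 2 in aged+Ri against young, beside 32.3%, and 1 and 3 in aged against young, beside 24.7%. Those other than Klf4 and Klf6 did not pass the edgeR test. The nuclear receptor Nr4a1 was at 68.2, 11.1 and 27.6 CPM in aged+Ri, 3.47, 1.43 and 3.24 CPM in aged and 6.55, 12.6 and 13.9 CPM in young libraries. Its adjusted p was 0.228 by edgeR and 4.05e-05 by DESeq2 for aged+Ri against aged, and 0.244 by edgeR for aged against young. Klf2 averaged 82.9 CPM in aged+Ri and 5.76 CPM in aged libraries (adjusted p = 0.335 by edgeR). Ier2 averaged 108 CPM in aged+Ri and 44.1 CPM in young libraries (adjusted p = 0.102 by edgeR, 0.0403 by DESeq2). Btg2 averaged 64.3 CPM in aged+Ri, 65.3 CPM in aged and 27.7 CPM in young libraries (adjusted p = 0.161 by edgeR for aged+Ri against young and 0.252 for aged against young), and Junb 12.8 CPM in aged and 26.9 CPM in young libraries (adjusted p = 0.325 by edgeR). Against these, the largest difference among the 10 NF-kB genes over the same libraries was that of Tnfaip3, and it ran in the lower direction.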

How the data were processed

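Bulk RNA-seq of 9 libraries was analysed from 1 table of estimated counts deposited by the authors: 71.6% to 80.9% of the values in a library were whole numbers within 0.005 and the rest were not. Per the labels' protocols, cDNA came from the SMART-Seq v4 kit, and Nextera XT was used for tagmentation. Per the submitters' processing notes, the build was GRCm38 and the tools were featureCounts (version and strand setting not given in the sources used here), STAR 2.7.0, cutadapt 1.18, R 4.2.0 and SAMtools 1.14. Groups came from the sample labels.

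Here these estimated counts were rounded, filtered with filterByExpr, scaled by TMM and fitted in 1 model of group means over all 9 libraries with 6 residual degrees of freedom (edgeR 4.0.16, glmQLFit with robust estimation and glmQLFTest, two-sided, in R 4.3.3). Adjusted p-values are Benjamini-Hochberg over 15127 genes and 0.05 was the threshold. Changes are given on the log2 scale with their standard errors, and levels are TMM-normalised CPM with SDs over 3 libraries. No exact test of 3 against 3 libraries can go below 0.1, so none was run. Intervals and detection limits cover counting or model error only.

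Coordinates and exon lengths, taken over all annotated exons of a gene, came from GENCODE vM21 for GRCm38, and upstream sequences from RefSeq (GRCm38.p6). The members and all gene lists were chosen with earlier results of these data known. Besides the 10 members, genes named were those of each pathway list past the threshold and, per comparison, up to 4 with the smallest p among those with at least 5 CPM in the higher group and groups that do not overlap. Ltb, Cd79a and Ripk1 were named after their values were seen. Likeness was searched for the member with the smallest p in each comparison. The alternatives tried were DESeq2 1.42.0, its size factors within edgeR, limma-voom (limma 3.58.1), edgeR's newer quasi-likelihood method, 2 other filters, only the groups compared, replicate block, batch as a covariate, young 1 as the single young library, and each library left out in turn. No pair of libraries was within sampling noise of each other. The fitting steps were tested on simulated data.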

Additional observations from a re-analysis of the deposited data

How the results depend on the processing

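No member passed the threshold under any alternative, except Rel and Tnfaip3 under DESeq2 in aged+Ri against young. Over the 10 members and 3 comparisons, 560 log2 fold changes were recomputed: 523 kept their direction and side of the threshold, 35 changed sign and 2 newly passed. No call could be lost, because the edgeR fit above called no member. In aged+Ri against young, Rel ran from -1.21 to -0.67 (adjusted p 0.00545 to 0.515) and Tnfaip3 from -3.13 to -1.41 (adjusted p 0.0168 to 0.317). The causes of the changes below were not tested. DESeq2 counts are over the 13916 genes it gave an adjusted p, and with young 1 alone the lone library is assumed to vary like the other groups. With batch as a covariate, young 1, alone under the label 1+3, does not bear on the comparisons with young. Those comparisons then rest on young 2 and young 3, which carried Y-linked transcripts, so group and the sex of the mice cannot be told apart there.

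Counts of genes called moved widely. Aged against young had 5, against 744 with DESeq2, 18 with limma-voom, 21 with edgeR's newer method, 20 without a filter, 1 with only these groups in the fit, 358 with young 1 as the single young library, and 2 (without aged 3) to 80 (without young 3) with 1 library left out; it was 20 without aged 2, 15 without young 1 and 13 without young 2. Aged+Ri against aged had 0, against 320, 55, 4, 11 and 2 under the first 5 of these, 16 with batch as a covariate and 0 to 6 (without aged 1) with 1 library left out. Aged+Ri against young had 219, against 1862 with DESeq2, 626 with limma-voom, 425 with the newer method, 57 with only these groups, 735 with young 1 alone, and 18 (without aged+Ri 3) to 532 (without young 3) with 1 library left out; it was 34 without aged+Ri 1, 109 without young 1, and 113, 121 and 132 without aged 1, 2 and 3.

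Same-numbered libraries deviated together by correlations of -0.07 to 0.14, so the numbers were not taken as pairs. With the replicate block the counts were 6, 2 and 226, and the sign changed for Nfkbie in aged against young (0.28) and aged+Ri against young (0.31) and for Nfkb1 in aged+Ri against aged (-0.016).

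Other sign changes in aged against young were Nfkbie (1.21 with limma-voom, 3.86 with young 1 alone), Nfkbiz (0.081 with limma-voom, 1.15 with batch) and Relb (-0.35 with batch). In aged+Ri against aged they were Nfkb1 (-0.080 with limma-voom, -0.014 without a filter, -0.20 with batch), Nfkbia (-0.010 with the stricter filter and -0.0085 with only these groups) and Nfkbiz (0.19 with batch). In aged+Ri against young they were Nfkbie (1.57 with limma-voom, 0.043 with the newer method, 4.25 with young 1 alone), Rela (-0.56 with batch) and Nfkbiz (1.34 with batch).

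With 1 library left out, signs changed within these ranges: in aged against young Relb -0.26 to 0.82, Nfkbie -1.04 to 0.050, Nfkbiz -0.998 to 0.32 and Bcl3 -0.11 to 2.39; in aged+Ri against aged Nfkb1 -0.21 to 0.28, Nfkb2 -0.23 to 0.49, Nfkbia -0.33 to 0.71 and Bcl3 -0.0032 to 0.98; in aged+Ri against young Nfkbie -0.66 to 0.45. With 3 libraries a group, the 95% interval of every member's ratio spanned at least a factor of 3.88 from end to end.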
